A study of Bos taurus with 3 samples.

Results

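A miRNA hairpin can give a mature miRNA from each of its arms, named 5p and 3p, and 19 hairpins with both arms listed were examined here in bovine milk-derived extracellular vesicles (BM-EVs). They were found by name. A miRNA whose name ends in 5p or 3p was taken where the same stem with the other ending was listed in at least 1 library. Let-7, 10 other miRNA numbers (miR-21 and miR-30 among them) and 3 ranges of cattle miRNA numbers were left out. The 19 hairpins, with 38 mature names, come from 745 listed miRNAs, of which 158 names on 108 stems end in 5p or 3p. Both arms were listed for 50 of these stems, and 31 of the 50 are left-out stems. The hairpins were thus chosen by measured UMI counts, of at least 11 for each arm in some library, and the choice favours hairpins whose weaker arm is not rare. For 39 further stems, left-out stems aside, a single arm was listed.

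Small RNA from BM-EVs of skimmed Bos taurus milk was sequenced in 3 libraries of a single group. The labels give normal, untreated milk with 100 ng of total RNA per library. By the paper's methods the milk was pasteurized and bought in a store, so untreated does not mean raw. The vesicles were isolated with ammonium sulfate after acidification. The study used milk of different expiration dates as biological replicates for its vesicle measurements, but whether these milk samples gave the libraries is not stated, and neither are the breed, age and number of cows. P-values here set differences between these libraries against counting error only and do not measure the spread between replicates. Such differences may be biological or technical. Values are unique molecular index counts (UMIs), which count PCR copies of a molecule once.

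Dicer cuts a hairpin to a short duplex, and an Argonaute protein usually keeps a single strand of it. The kept strand guides the silencing of target mRNAs, while the other, the passenger strand, is mostly degraded. The 5p share is the percentage of the UMIs of both arms held by the 5p arm. It describes the balance of the arms as counted in the vesicles. Binding to Argonaute was not measured, so the share does not show the choice of strand directly. The arms carry different seeds and so have different targets, and for some hairpins the preferred arm is known to differ between tissues.

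The miRNA UMIs summed to 77225, 373239 and 102058 in libraries 1, 2 and 3, and the 19 hairpins held 2.33%, 2.15% and 2.42% of them (mean 2.30% ± 0.136, SD, n = 3). UMIs of other small RNAs, matched to Rfam, summed to 1013392, 1937450 and 863833. No entry was listed under 11 UMIs, so an unlisted arm had between 0 and 10 UMIs and is not known to be absent. This touched 10 of the 19 hairpins and 16 of the 114 counts of an arm in a library. All 6 epithelial miRNAs of a short marker list were listed, at 4.17 to 6.24% of the miRNA UMIs. The red blood cell list (1 of 2 listed, miR-451 unlisted) and the muscle list (3 of 4 listed, miR-133b unlisted) stayed under 0.0324% and 0.0311%, and the liver miRNA miR-122 reached 0.0196%.

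The same arm had more UMIs in every library for 12 of the 19 hairpins, and for 7 it did not, in some of them by a few UMIs only. The 5p arm had more UMIs in every library for 5 hairpins, miR-193a, miR-423, miR-760, miR-1343 and miR-1584. The 3p arm had more in every library for 7, namely miR-29d, miR-149, miR-151, miR-1388, miR-331, miR-1247 and miR-10182. The same arm led throughout in 68.2% of the 44 hairpins of the series in which a leading arm could be named in each library, the 19 included. Of these 44, 34.1% led with the 5p arm throughout and 34.1% with the 3p arm. The 12 of 19 therefore lie close to the share over all such hairpins. Where only 1 arm is listed, it has at least 11 UMIs and the other at most 10, so the leading arm is known.

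**Figure D1:**
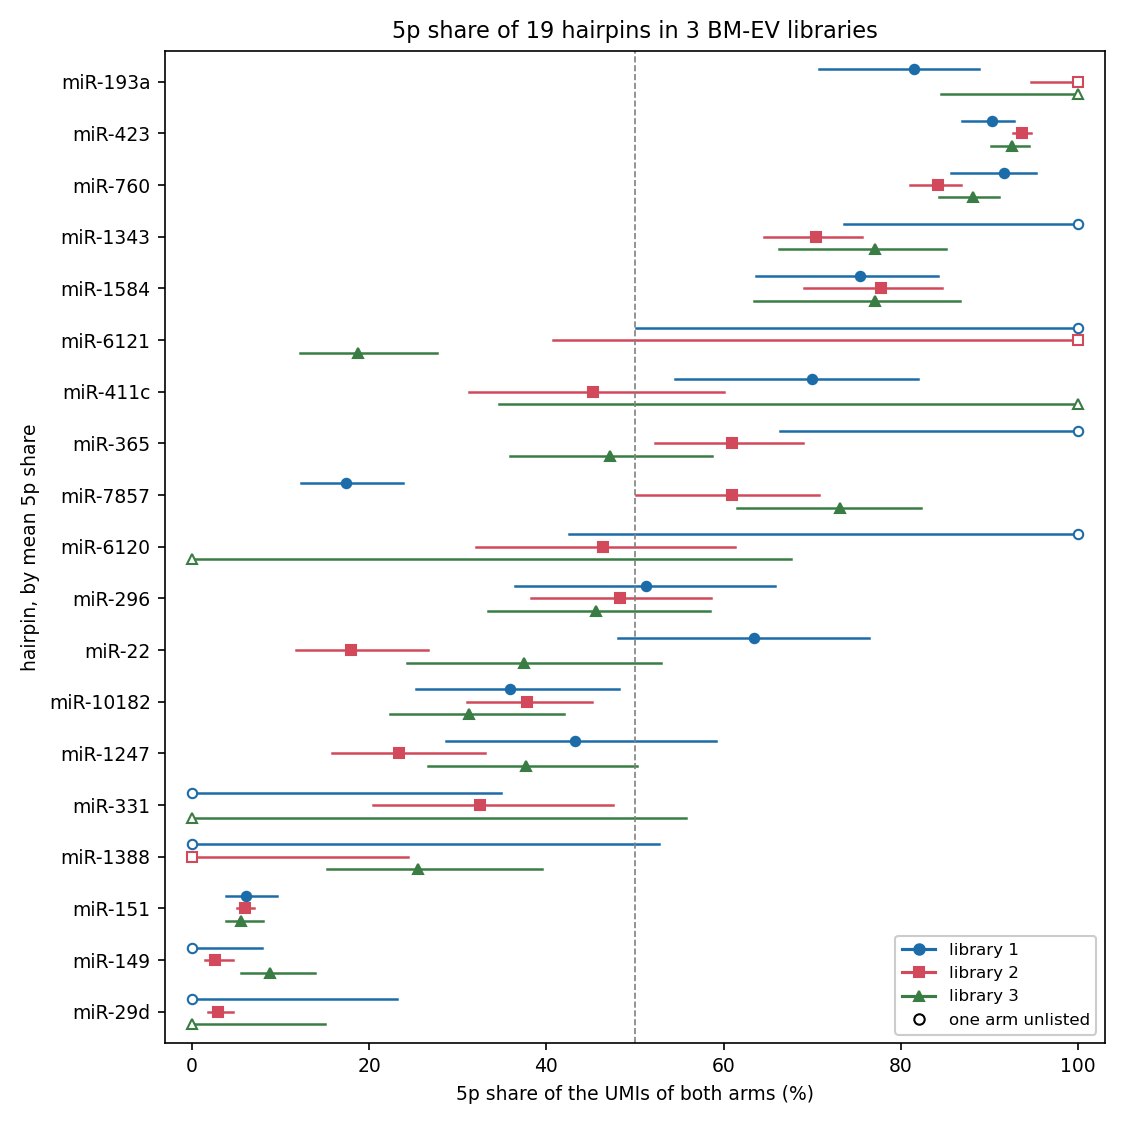
The 5p share of both arms' UMIs (%) of each hairpin in libraries 1, 2 and 3, ordered by the mean share. Lines are Wilson 95% intervals, drawn as wide as an unlisted arm of 0 to 10 UMIs allows, and open points have an unlisted arm entered as 0. The 5 hairpins at the top keep to the right of 50% and miR-151, miR-149 and miR-29d at the bottom to the left, while miR-193a, miR-6121, miR-365, miR-7857, miR-22 and miR-149 each have intervals of 2 libraries that do not overlap.

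The interval of the 5p share lay on the same side of 50% in every library for 9 of the 19 hairpins, against 40.9% of the 44. These were all 5 hairpins led by the 5p arm and 4 of those led by the 3p arm. The intervals cover counting error only.

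Among hairpins led by the 5p arm, miR-423 had the most UMIs. Its gene overlaps NSRP1, a gene for a splicing regulator. MiR-423-5p had 361, 2118 and 537 UMIs in libraries 1, 2 and 3, and miR-423-3p had 39, 142 and 43. The 5p arm thus led in each library, with shares of 90.2%, 93.7% and 92.6% (mean 92.2% ± 1.77, SD, n = 3). MiR-423-5p was the 23rd most abundant miRNA in all 3 libraries, at 4675, 5675 and 5262 CPM (UMIs in 1000000 miRNA UMIs of the library). The 3p arm stood at 505, 380 and 421 CPM.

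MiR-760 is reported to lower casein kinase 2 in human cells, and which of its arms does so was not examined here. Its 5p arm had 121, 525 and 304 UMIs in libraries 1, 2 and 3, while the 3p arm had 11, 99 and 41. This gave 5p shares of 91.7%, 84.1% and 88.1% (mean 88.0% ± 3.77), so the libraries lay within 7.53 percentage points. In library 1 the 3p arm was at the listing limit.

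MiR-193a lies within 20 kb of the second miR-365 gene, and its 3p arm is known to target MCL1, a survival factor, in human cells. Its 5p arm had 57, 327 and 103 UMIs in libraries 1, 2 and 3. The 3p arm had 13 UMIs in library 1 and was unlisted in libraries 2 and 3. In library 1 the 5p share was 81.4%, with an interval of 70.8 to 88.8%. In library 2 it was at least 97.0%, and with counting error at least 94.6%, which lies above the interval of library 1. In library 3 it was at least 91.2%, and with counting error at least 84.5%, so the intervals of libraries 1 and 3 overlapped. A second RefSeq gene, MIR193A-2, overlaps ZNF623, so the UMIs can come from 2 hairpins. The related miR-193b had 14, 14 and 17 UMIs.

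MiR-1343, whose gene overlaps PDHX, is known in human lung cells to lower the receptors of TGF-beta through its 3p arm. The 5p arm had 54, 183 and 57 UMIs in libraries 1, 2 and 3, and the 3p arm had 77 and 17 in libraries 2 and 3 and was unlisted in library 1. Libraries 2 and 3 had 5p shares of 70.4% and 77.0%, and library 1 had at least 84.4%. These 3 intervals overlapped. MiR-1584 had 49, 84 and 37 UMIs in the 5p arm and 16, 24 and 11 in the 3p arm. Its 5p share was nearly level, at 75.4%, 77.8% and 77.1% (mean 76.7% ± 1.23).

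Among hairpins led by the 3p arm, miR-151 was the most abundant and the most even. It overlaps PTK2, the gene of focal adhesion kinase, and its 5p arm is known to promote the migration of human liver cancer cells. MiR-151-3p had 260, 2407 and 441 UMIs in libraries 1, 2 and 3, and miR-151-5p had 17, 153 and 26. Its 5p share was 6.14%, 5.98% and 5.57% (mean 5.89% ± 0.294), a range of 0.570 percentage points. Its level did not stay so even. MiR-151-3p stood at 3367, 6449 and 4321 CPM, and miR-151-5p at 220, 410 and 255. Library 2 had 9.26 times the UMIs of library 1 for the 3p arm and 9 times for the 5p arm, against 4.83 times for all miRNA UMIs.

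MiR-149, which overlaps the glypican gene GPC1, was nearly all 3p. The 3p arm had 218, 438 and 165 UMIs in libraries 1, 2 and 3, while the 5p arm was unlisted in library 1 and had 12 and 16 in libraries 2 and 3. MiR-149-3p is known in human melanoma as a p53-induced regulator of GSK3A. MiR-149-5p held 2.67% (interval 1.53 to 4.60%) in library 2 and 8.84% (interval 5.51 to 13.9%) in library 3. These intervals did not overlap, although the 3p arm led in both. In library 1 the share was at most 4.39% before counting error.

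MiR-29d-3p belongs to the miR-29 family, known to repress collagens and DNA methyltransferases in human and mouse cells. It had 64, 556 and 107 UMIs in libraries 1, 2 and 3. MiR-29d-5p was listed in library 2 alone, with 17 UMIs, and its share there was 2.97%. In libraries 1 and 3 the share was at most 13.5% and 8.55% before counting error. The relatives miR-29c (530, 4417 and 695 UMIs), miR-29a (206, 1706 and 302) and miR-29b (44, 249 and 51) may share UMIs with miR-29d, since how reads with several matches were treated is not stated. The share of miR-29d is uncertain to that extent.

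**Figure D2:**
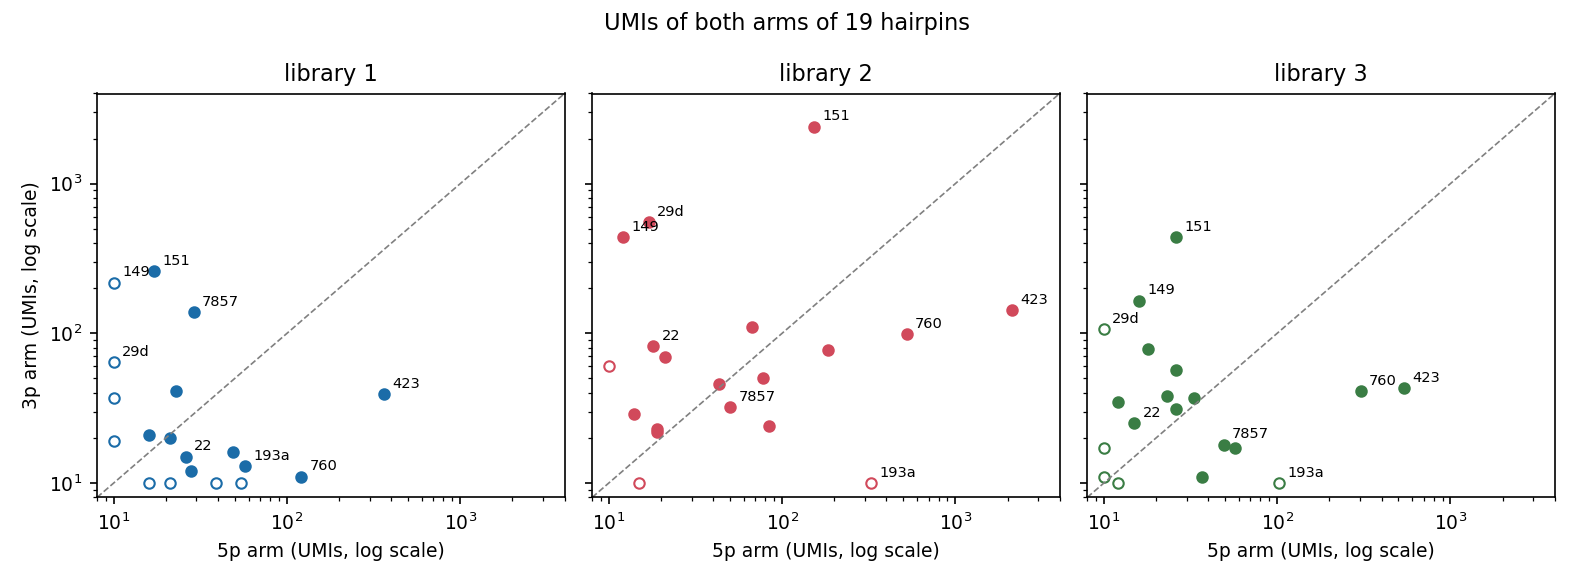
UMIs of the 3p arm against the 5p arm of the 19 hairpins, both on a log scale, with a panel for each library. The dashed line marks equal arms, and open points have an unlisted arm drawn at its upper limit of 10 UMIs. MiR-423 and miR-760 stay right of the line and miR-151, miR-149 and miR-29d left of it, while miR-7857 lies left of it in library 1 and right of it in libraries 2 and 3.

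A weaker lead of the 3p arm was seen in miR-10182 and miR-1247. MiR-10182, which overlaps FGF12, had 41, 110 and 57 UMIs in the 3p arm and 23, 67 and 26 in the 5p arm. Its 5p share was 35.9%, 37.9% and 31.3% (mean 35.0% ± 3.36), and its interval stayed under 50% in every library. MiR-1247 overlaps DIO3OS, and its 5p arm is known to act on SOX9 in human cartilage cells. The 3p arm had 21, 69 and 38 UMIs, and the 5p arm had 16, 21 and 23. Its 5p share was 43.2%, 23.3% and 37.7%, and the interval was under 50% in library 2 only. MiR-1388 and miR-331 were led by the 3p arm as well, with 19, 60 and 35 UMIs for miR-1388-3p and 37, 29 and 17 for miR-331-3p. Their 5p arms were each listed in 1 library, at 12 UMIs for miR-1388 in library 3 and 14 UMIs for miR-331 in library 2. MiR-331-3p is known to target ERBB2 in human prostate cells.

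In 7 hairpins the leading arm was not the same in every library. These were miR-7857, miR-22, miR-6121, miR-365, miR-411c, miR-6120 and miR-296. The 5p arm led in 6 of the 7 in library 1, in 3 in library 2 and in 2 in library 3. MiR-7857 was the exception in library 1. The leading arm also changed in 7 of the 25 left-out hairpins with a leading arm in each library. In these 7 too, the 5p arm led more often in library 1 than in library 2 or 3. The pattern over libraries is therefore not particular to the hairpins described here, and it was not tested.

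MiR-7857 had the widest range among the hairpins with both arms listed in every library, and its 3p arm stood apart in library 1. MiR-7857-3p had 138, 32 and 18 UMIs in libraries 1, 2 and 3, while miR-7857-5p had 29, 50 and 49. The level of the 3p arm was 1787 CPM in library 1, against 85.7 and 176 CPM in libraries 2 and 3. The 5p arm was at 376, 134 and 480 CPM and was not highest in library 1. In 5p share, miR-7857 had 17.4% (interval 12.4 to 23.8%), 61.0% (50.2 to 70.8%) and 73.1% (61.5 to 82.3%) in libraries 1, 2 and 3. Its mean of 50.5% ± 29.3 (SD, n = 3) thus describes no library. RefSeq has 2 hairpin genes of this name within 20 kb of each other, so the arms may not come from the same hairpin.

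MiR-22 differed between libraries mainly in its 5p arm. MiR-22-3p had 15, 82 and 25 UMIs in libraries 1, 2 and 3, or 194, 220 and 245 CPM, a mean of 220 ± 25.4. MiR-22-5p had 26, 18 and 15 UMIs, or 337, 48.2 and 147 CPM. The 3p level was thus close between libraries, while the 5p level was highest in library 1 and lowest in library 2. Its 5p share was 63.4% (interval 48.1 to 76.4%), 18.0% (11.7 to 26.7%) and 37.5% (24.2 to 53%). MIR3600 overlaps MIR22 in RefSeq, and miR-3600 had 27 and 18 UMIs in libraries 2 and 3 and was unlisted in library 1. Whether strand was used in counting is not stated, so the count of miR-22 is uncertain to that extent.

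**Figure D3:**
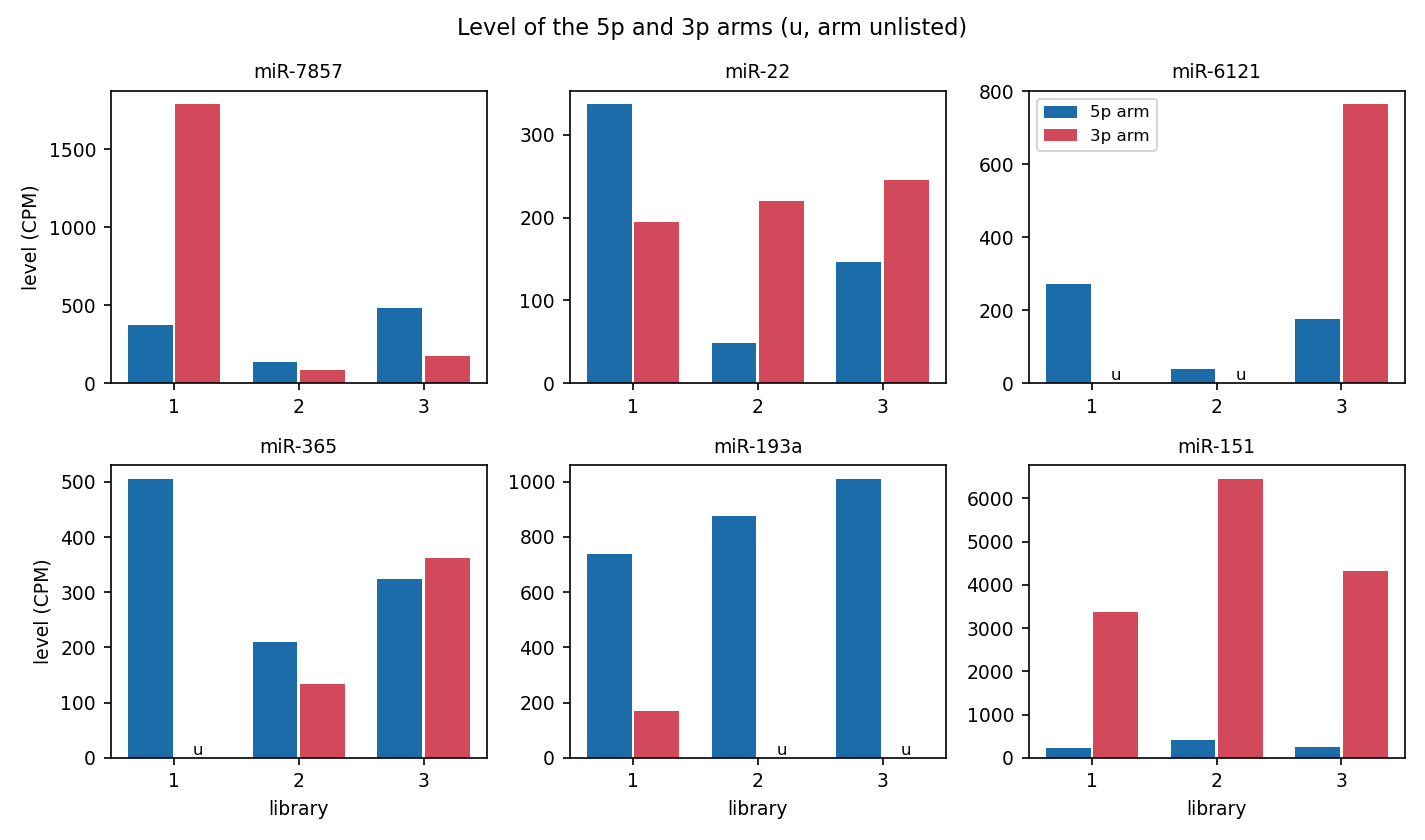
Level of the 5p and the 3p arm, in CPM, of 6 hairpins in libraries 1, 2 and 3, with u for an unlisted arm. MiR-7857-3p stands at 1787 in library 1 against 85.7 and 176 in libraries 2 and 3, and miR-6121-3p is listed in library 3 alone, while both arms of miR-151 are highest in library 2.

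MiR-6121, which overlaps the plexin gene PLXNA2, was led by its 3p arm in library 3 alone. Its 5p arm had 21, 15 and 18 UMIs in libraries 1, 2 and 3. The 3p arm had 78 UMIs in library 3 and was unlisted in libraries 1 and 2. The 5p share was 18.8% (interval 12.2 to 27.7%) in library 3, against at least 67.7% in library 1 and at least 60% in library 2. Counting error included, the lower limits there were 50.1% and 40.7%, above the interval of library 3.

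MiR-365 has 2 RefSeq genes, MIR365-1 within 20 kb of MIR193B and MIR365-2 within 20 kb of MIR193A, so its UMIs can come from 2 hairpins. In mice, miR-193b and miR-365 are known for brown fat differentiation. MiR-365-5p had 39, 78 and 33 UMIs in libraries 1, 2 and 3, and miR-365-3p was unlisted in library 1 and had 50 and 37 in libraries 2 and 3. The 5p share was at least 79.6% in library 1, and it was 60.9% and 47.1% in libraries 2 and 3. The interval of library 3 (35.9 to 58.7%) did not reach the lower limit of library 1 (66.4%).

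For the other 3 hairpins the arm with more UMIs was not the same in every library, but no pair of intervals was apart, so a difference in share was not shown. MiR-296, studied in human endothelial cells for its role in vessel growth, had 21, 43 and 26 UMIs in the 5p arm and 20, 46 and 31 in the 3p arm. Its 5p share of 51.2%, 48.3% and 45.6% (mean 48.4% ± 2.80) lay within a few points of an even split in each library, with 21 against 20 UMIs in library 1. MiR-411c is part of a large imprinted miRNA cluster, with 38 other miRNA genes within 20 kb in RefSeq. It had 28, 19 and 12 UMIs in the 5p arm, and 12 and 23 in the 3p arm of libraries 1 and 2. MiR-6120, which overlaps CSNK1G2, had 16 and 19 UMIs in the 5p arm of libraries 1 and 2, and 22 and 11 in the 3p arm of libraries 2 and 3. An arm of each was unlisted in the remaining libraries.

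In all, intervals of at least 2 libraries were apart for 6 of the 19 hairpins (miR-193a, miR-6121, miR-365, miR-7857, miR-22 and miR-149), against 31.8% of the 44. Both arms were listed in every library for 2 of the 6, miR-7857 and miR-22. MiR-193a and miR-6121 were chosen through a 3p arm listed in a single library, and the same counts set their intervals apart, so for them this is a description and no test. MiR-365 and miR-149 were chosen through an arm unlisted in library 1, and the counts of that arm enter the intervals that lie apart. For them too this is a description and no test. A test of the difference was run where both arms were listed in every library. That held for 9 of the 19 hairpins and for 9 left-out ones, 36% of the 50. With a two-sided Fisher's exact test of both arms across the 3 libraries, and Benjamini-Hochberg adjustment over the 18, the 5p share differed for 2 of the 9 hairpins. By this exact test the adjusted p was 6.95e-18 for miR-7857 and 6.70e-06 for miR-22. Over all 18, 27.8% were called, 3 of them left-out hairpins. The test compares these libraries and not conditions, and it takes each UMI as independent.

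Both calls were lost without library 1. There, the adjusted p was 0.366 for miR-7857 and 0.0937 for miR-22, and 0 of the 9 hairpins were called, against 16.7% of the 18, all 3 of them left-out hairpins. In that exact test 1 of the 9 had an unadjusted p under 0.05, and a chi-square test also called 0. Without library 2, miR-22 was not called (adjusted p = 0.109 by the exact test), while miR-7857 was (1.67e-14), the only call among the 18 (5.56%).

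MiR-760, miR-423 and miR-1247 had unadjusted p-values of 0.0371, 0.0395 and 0.0422 in the exact test, which did not pass after adjustment (adjusted p = 0.0759 for each). MiR-10182, miR-296, miR-151 and miR-1584 had an adjusted exact p of at least 0.781. For miR-151 the counts were large enough that each library's interval was at most 5.74 percentage points wide. For miR-296 they were 20.3 to 29.3 points wide, and a p that misses the threshold does not show that its shares are alike.

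**Figure D4:**
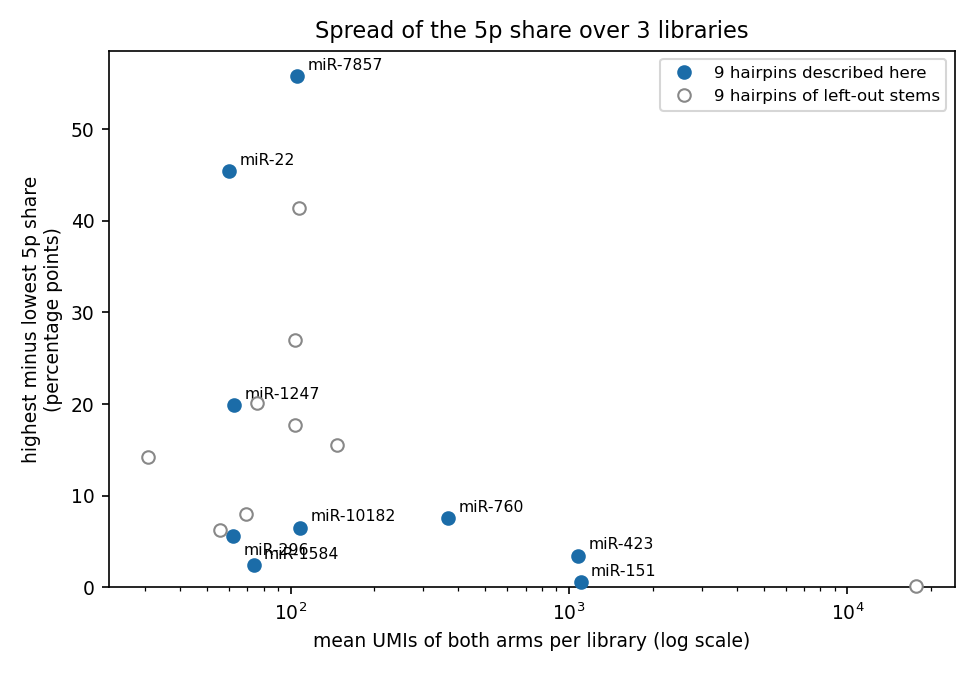
The highest minus the lowest 5p share over the 3 libraries, in percentage points, against the mean UMIs of both arms per library on a log scale, for the 9 hairpins described here and the 9 left-out hairpins with both arms listed in every library. MiR-7857 and miR-22 lie at 55.8 and 45.4 points, and miR-151 and miR-423, with the most UMIs of the 9, at 0.570 and 3.47 points.

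The spread of the 5p share over libraries had a median of 6.53 percentage points in the 9 hairpins (0.570 to 55.8) and 15.5 points in the 9 left-out ones. A range in points tends to be narrower near the ends of the scale, where miR-151, miR-423, miR-760 and a left-out hairpin lie. The medians therefore do not show that the hairpins described here are steadier, and their difference was not tested. Leading arms were also counted by depth. Among hairpins with a mean of at least 100 UMIs per library, the same arm led in every library for 8 of 9 hairpins, with miR-7857 as the exception. Among those under 100 UMIs it was 4 of 10. The left-out hairpins had 7 of 9 and 11 of 16. The difference between these counts was not tested.

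Library 2 had the most miRNA UMIs, and the arm with fewer UMIs in library 3 was compared between it and library 1. The shares compared do not use library 3, but it helped to choose the hairpins. An arm of miR-1388 and of miR-6121 was listed in library 3 alone, and the restriction used below asks for both arms in it. With an unlisted arm entered as 0, the share of this arm was lower in library 2 than in library 1 for 10 of the 19 hairpins, against 40.9% of the 44. For 5 of these 10 (miR-7857, miR-22, miR-296, miR-365 and miR-6120) the same arm was the leading arm of library 1, so it was not the minor arm there. Entering 0 fixed part of this count. In miR-1343, miR-1388, miR-149, miR-29d and miR-331 this arm was unlisted in library 1 and could not be lower in library 2. In miR-365, miR-6120 and miR-6121 it stood at 100% in library 1 and could not be higher. In miR-193a it was unlisted in library 2. For these hairpins the comparison decides nothing. Where both arms were listed in every library, a restriction chosen after seeing the data, the share of this arm was lower for 7 of 9 hairpins, against 61.1% of the 18. Of these 7, 3 had this arm leading in library 1. The exceptions were miR-10182 and miR-760. The restriction asks for at least 11 UMIs of this arm in library 1 too, although library 1 had far fewer miRNA UMIs. It thus favours hairpins in which this arm came out high in library 1, so the 7 of 9 decides nothing either. For miR-423 the 3p share was 6.28% in library 2 and 9.75% in library 1, and for miR-1584 it was 22.2% and 24.6%. Among the 7, miR-7857 and miR-22 passed the exact test across libraries and the other 5 did not.

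The choice of the hairpins rests on a minimum of 11 UMIs, so its border is close to some members. The weaker arm of miR-1388 and of miR-193a had its highest count at 12 and 13 UMIs, just inside. Just outside lie the 39 stems with a single listed arm, 21 with the 5p and 18 with the 3p arm. The 2 of these stems with a mean of at least 100 UMIs were both led by the 3p arm. MiR-10167-3p had 158, 377 and 132 UMIs, and miR-10174-3p had 30, 400 and 72. With at most 10 UMIs in its unlisted arm, the 3p share of miR-10167 was at least 94.0%, 97.4% and 93.0%, and that of miR-10174 was at least 75.0%, 97.6% and 87.8%.

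Of the 19 hairpins, 12 overlap a protein-coding gene in RefSeq. They include miR-151 (PTK2) and miR-1584 (TAGLN2), with the smallest ranges of the 5p share among the 9 tested, and miR-22 (TLCD2), with the second largest. MiR-7857, with the largest range, overlaps no gene, and miR-193a counts through MIR193A-2 only. Overlaps were not counted over the other listed hairpins, and a link between overlap and range was not tested. The table gives no strand, so an overlap does not say that the gene is the host.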

How the data were processed

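Small RNA of BM-EVs was sequenced in 3 libraries, numbered by the replicate in the labels. The authors tagged each cDNA with a unique molecular index, trimmed adapters, filtered low-quality reads and mapped sequences to miRBase and then Rfam. FastQC, cutadapt 2.7 and Bowtie 1.2.2 are named in the processing notes of the submitters. Neither labels nor methods state the genome build, the database versions, the mismatches allowed, the strand setting or what was done with reads of several matches. The deposited values are raw UMI counts, 1 table for mature miRNAs and 1 for Rfam sequences in each library, and the authors did not normalize them. Levels in CPM were computed here from the miRNA UMIs of a library.

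The 5p share was taken within each library, with an unlisted arm entered as 0 and, as its other bound, as 10 UMIs, and averaged over libraries with equal weight. Library scaling does not change it. Intervals are Wilson 95% intervals from scipy 1.17.1, and for an unlisted arm they span both bounds. Fisher's exact test (two-sided, full enumeration) was run over all hairpins with both arms listed in every library, with Benjamini-Hochberg adjustment over all of them and a threshold of 0.05. Its code was checked on simulated counts with counting error only. That check does not cover libraries that differ by more than counting noise, as these do. With 3 libraries of 1 group, a two-sided sign permutation test cannot give a p under 0.25, so no such test was run. Full values are given for hairpins with both arms listed in every library or a mean of at least 100 UMIs, and the other members more briefly. Groups by mean UMIs, single-arm stems, comparisons of intervals between libraries and the restriction of the comparison of libraries 2 and 1 to hairpins with both arms listed in every library were chosen after seeing the data. Counts of miRNAs in any pair of libraries were farther apart than counting noise gives (chi-square per degree of freedom 9.68 to 41.1), so no library was treated as a repeat.

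All 19 hairpins matched RefSeq gene names of the ARS-UCD2.0 assembly, with 22 hairpin genes. Its coordinates are not printed, as the build of the deposited files is not named. Mature sequences were not used here, so the bases at the 5' end of the arms were not compared. The hairpins and lists were chosen with earlier results of these data known. Python 3.11.15, numpy 2.4.6, pandas 2.3.3 and matplotlib 3.10.9 were used.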

Additional observations from a re-analysis of the deposited data

How the results depend on the processing

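No paired analysis was possible because there is a single group of libraries. The number of hairpins whose 5p share differed between libraries, 2 of 9, was 2 with a chi-square test. With the exact test, leaving out single libraries gave 0 to 2, with 0 without library 1 (3 of all 18 hairpins), 1 without library 2 (1 of 18) and 2 without library 3 (5 of 18). The chi-square test, with libraries left out after seeing the data, gave 0, 1 and 3 of the 9 (3, 1 and 6 of 18), the third being miR-423 without library 3 (adjusted p = 0.0335, against 0.0516 by the exact test). With at least 30 UMIs over both arms in every library, 14 of the 19 hairpins could be tested. Of these, 6 were called with an unlisted arm entered as 0, against 42.9% of all 28 hairpins at this setting, and 6 with it entered as 10, against 46.4%, so the members lie near the share over all hairpins. MiR-1343 was called only at 0 (adjusted p = 1.11e-06 by the exact test, against 0.0828 at 10), and miR-29d only at 10 (adjusted p = 5.46e-04, against 0.120 at 0). MiR-7857, miR-22, miR-193a, miR-365 and miR-149 were called at both. The calls other than miR-7857 and miR-22 rest on arms whose UMIs are not known in every library and that decided membership. This was through library 1 alone for miR-193a and through library 2 alone for miR-29d. These calls are descriptions only. The same arm led in both remaining libraries for 13 to 16 hairpins, against 12 in all 3, when a library was left out, a setting chosen after seeing the data. The arm with fewer UMIs in library 3 was lower in library 2 for 14 hairpins with an unlisted arm at 10 and for 7 with the minor arm taken from pooled UMIs, against 10. At 10 the share of an unlisted arm depends on the UMIs of the other arm, as in miR-1388-5p (34.5% in library 1 and 14.3% in library 2). The rise to 14 therefore rests on entered values. With the unlisted arm at 10, the mean 5p shares of miR-1388 (24.8%), miR-331 (30.3%) and miR-29d (8.34%) moved by more than 1 SD. The bases at the 5' end of the arms were not analysed here.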
